A study of Mus musculus with 15 samples.

Results

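The nuclear genes for the end of the mitochondrial respiratory chain, namely respiratory complexes III and IV, cytochrome c and ATP synthase, were examined in mouse liver. They were taken as every gene whose annotated symbol started with Uqcr, Cox4, Cox5, Cox6, Cox7, Cox8 or Atp5, together with Cyc1 and Cycs, and they made up 44 of the 18193 genes measured. Complex III had 9 of these genes, cytochrome c 1, complex IV 17 and ATP synthase 17. The 44 genes were measured by 87 probe sets. Cox7a2l was kept because its symbol fits, although its protein is known as a factor that joins complexes into supercomplexes. Cox7b also fits the rule, but no probe set carried its name, and the subunits encoded by mitochondrial DNA were not analysed here.

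Liver RNA came from male C57BL/6J mice that entered the experiment at 7 weeks of age and ate 1 of 5 diets for 9 weeks, with 3 mice in each group and 1 Affymetrix Mouse Genome 430 2.0 array for each mouse. The ND group received a normal diet with 10% of its energy from fat, and the HF group a high-fat diet with 60% of its energy from fat. The other groups received the same high-fat diet with 2% freeze-dried coffee, which was caffeinated in the HFCC group, decaffeinated in the HFDC group, and unroasted (green) and caffeinated in the HFGC group. The 3 mice of a group were drawn at random from a larger cohort. The comparison of HF with ND asks what the high-fat diet did, and those of the coffee groups with HF ask what coffee did on that diet. Every comparison with HF uses the same 3 HF arrays.

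Complex III takes electrons from ubiquinol and passes them to cytochrome c, a small mobile protein, which delivers them to complex IV, where oxygen is reduced to water. Both complexes move protons across the inner mitochondrial membrane, and ATP synthase lets the protons return through its membrane ring and uses the energy to make ATP. In the liver this chain supplies ATP for gluconeogenesis, urea synthesis and lipid handling, and it takes up the electrons released by fatty acid oxidation. Several complex IV subunits come as pairs of genes, with a form that the liver uses and a form known from muscle, lung or testis.

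The values are log2 intensities of probe sets, and a difference is a difference of group means on that scale. A gene was called where its limma p-value, adjusted over all 18193 genes, was under 0.05. Array medians ranged from 48.45 to 49.95 intensity units. The 6 hepatocyte markers all lay above the median gene, with a summed log2 level between 16.71 and 16.85 on every array. The summed level of the 4 measured markers of pancreatic acinar cells was 8.63 to 8.89 in the ND group and 9.18 to 9.62 in the 4 groups on the high-fat diet, with 3 of the 4 below the median gene. That rise came from Cela1, which was 0.90 higher in HF than in ND (adjusted p = 0.0035), while the other 3 lay below 0. Of the markers of other cells, Pdgfrb and Reln (2 of 6 for stellate cells), Stab2 (1 of 5 for endothelial cells) and Alas2 (1 of 3 for erythroid cells) were called higher in HF, by 0.75, 0.52, 0.49 and 0.43. None of the 6 macrophage markers was called, with a median of 0.31 and 1 at an unadjusted p under 0.05 in limma. Of the 6 markers of striated muscle, all below the median gene, 1 was called lower in HF, at -0.22. With the coffee groups together 1 of these 6 was called higher, and Stab2 was 0.36 lower. The part of these cells in the differences below was not tested. The arrays differed in a measure of RNA quality, the log2 excess of the 3' over the 5' control probe sets of Gapdh and Actb. Its mean was 1.22 ± 0.17 (SD, n = 3) for HF mice, with 1.40 for HF replicate 2, and the means of the remaining groups ran from 0.82 to 0.93. In whole liver, fewer cells of a type and less RNA per cell cannot be told apart.

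Most of the 44 genes differed little between diets, and so did all genes at their median. The median absolute difference between HF and ND was 0.094, against 0.123 over all genes. With the coffee groups together against HF it was 0.085, against 0.091. Between HF and ND, 5 of the 44 were called, 1 higher and 4 lower. Among all 18193 genes the share called was 8.92% for higher and 4.63% for lower. The median difference of the 44 genes was -0.03 and that of all genes was -0.0015. For 41 of the 44 genes the 95% interval lay within 1.5-fold in either direction, which is 0.58 on the log2 scale. The other 3 genes were Cycs, Uqcrfs1 and Cox6b2, all lower in the HF group. With the coffee groups together against HF, 8 of the 44 were called, 1 higher and 7 lower, where 3.39% and 6.88% of all genes were called. The median difference was -0.06, against 0.0069 over all genes. Of the 44 genes 29 lay below 0, while 52.2% of all genes lay above 0. The interval lay within 1.5-fold for 43 genes, with Cox7a1 as the exception. The calls with the coffee groups together depended on the HF arrays. When either HF replicate 2 or HF replicate 3 was left out, limma called 0 of the 44 genes there, while 10 and 11 of them had an unadjusted p under 0.05. With all arrays 16 of the 44 genes and 4634 of all 18193 had one. Over all genes 0.022% and 0.352% were called without HF replicate 2 and without HF replicate 3, against 10.3% with all arrays. How many of all genes had an unadjusted p under 0.05 without these arrays is not given.

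**Figure D1:**
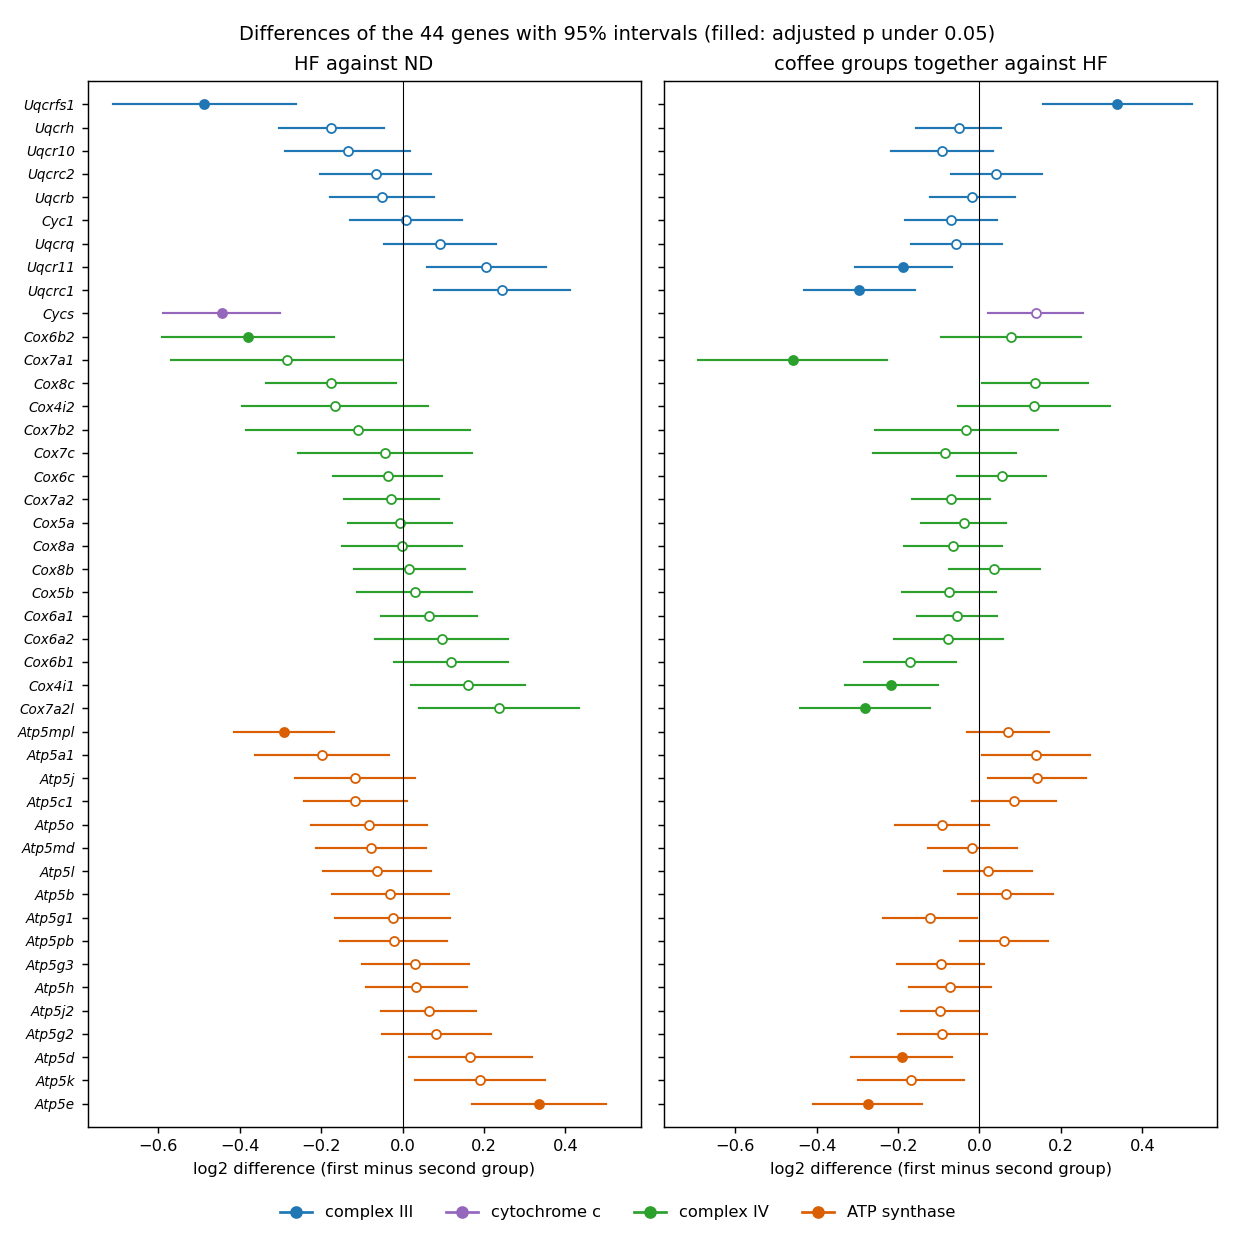
Log2 difference of each of the 44 genes between HF and ND (left) and between the coffee groups together and HF (right), with 95% intervals from limma. Colours mark the complexes, and filled points are called at an adjusted p under 0.05. Most points lie within 0.2 of 0 (35 genes on the left and 38 on the right), and Cycs and Uqcrfs1 stand farthest to the left in the HF comparison.

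Complex III changed in single subunits and in opposite directions. Uqcrfs1, the Rieske iron-sulfur protein that takes the first electron from ubiquinol, fell in the HF group. Its log2 intensity was 11.93, 11.99 and 11.94 on the ND arrays and 11.71, 11.20 and 11.49 on the HF arrays. The HFCC arrays gave 11.65, 11.90 and 11.86, the HFDC arrays 11.76, 11.81 and 11.82, and the HFGC arrays 11.79, 11.75 and 11.93. All HF arrays lay below all ND arrays, and the HF arrays spread more widely (SD 0.25) than the ND arrays (SD 0.03). The difference between HF and ND was -0.49 (standard error 0.11, limma adjusted p = 0.0096), and it was called without any 1 of the 15 arrays, with an adjusted p of 0.042 at most. With the HF and ND arrays fitted alone it missed the threshold (adjusted p = 0.068). With the coffee groups together Uqcrfs1 was 0.34 higher than in HF (standard error 0.09, limma adjusted p = 0.024). Of the 9 coffee arrays, 8 lay above every HF array. That call was lost without HF replicate 2, where the difference was 0.21 (adjusted p = 0.20), and without HF replicate 3, where it was 0.35 (adjusted p = 0.097). The 3' to 5' values of HF replicates 1, 2 and 3 were 1.08, 1.40 and 1.17. With that value as a covariate the differences were -0.14 (adjusted p = 0.52) for HF against ND and 0.01 (adjusted p = 0.97) for the coffee groups.

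Uqcrc1, one of the large core proteins on the matrix side of complex III, ran the other way. The ND arrays gave log2 intensities of 11.43, 11.50 and 11.41, and the HF arrays 11.53, 11.81 and 11.75. The HFCC arrays gave 11.47, 11.36 and 11.40, the HFDC arrays 11.26, 11.38 and 11.31, and the HFGC arrays 11.39, 11.44 and 11.56. HF replicates 2 and 3 were the highest of all arrays, and HF replicate 1 lay within the range of the HFGC group. Uqcrc1 was 0.30 lower with the coffee groups together than in HF (standard error 0.06, limma adjusted p = 0.014). Between HF and ND it missed the threshold, with a difference of 0.24 (adjusted p = 0.053), and it was the complex III gene closest to it. Uqcr11, a small complex III subunit, was 0.19 lower with the coffee groups together (standard error 0.06, limma adjusted p = 0.046). The mean log2 intensity was 12.42 ± 0.08 (SD, n = 3) on the HF arrays and 12.21 ± 0.08 on the ND arrays, a difference of 0.21 that was not called (adjusted p = 0.060). The coffee call of Uqcrc1 was lost without HF replicate 2 or 3, at differences of -0.24 and -0.27 (adjusted p up to 0.13), and for Uqcr11 leaving out any of 10 arrays ended the call, both of these HF arrays among them, at -0.17 and -0.16 (adjusted p up to 0.22). With the 3' to 5' value as a covariate the coffee differences were -0.25 for Uqcrc1 (adjusted p = 0.45) and -0.18 for Uqcr11 (adjusted p = 0.50).

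The other 6 complex III genes were called in neither comparison. Uqcrh, the hinge protein that holds cytochrome c1, was at -0.18 between HF and ND (adjusted p = 0.067), with all HF arrays below all ND arrays. Uqcrc2, the partner core protein of Uqcrc1, was at -0.07 between HF and ND and 0.04 with coffee, and Cyc1, which encodes the cytochrome c1 heme protein, was at 0.01 and -0.07. The intervals for Uqcrc2 ran from -0.20 to 0.07 and from -0.07 to 0.15. The core proteins, Cyc1 and the Rieske protein belong to the same complex, and their differences between HF and ND ran from -0.49 for Uqcrfs1 to 0.24 for Uqcrc1.

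Cycs, the gene for cytochrome c, fell in the HF group on every probe set that carried its name. On the brightest of them its log2 intensity was 13.12, 12.97 and 13.08 on the ND arrays and 12.68, 12.51 and 12.65 on the HF arrays. The HFCC arrays gave 12.64, 12.68 and 12.74, the HFDC arrays 12.87, 12.82 and 12.74, and the HFGC arrays 12.75, 12.78 and 12.75. All 12 arrays of mice on the high-fat diet, with or without coffee, lay below the lowest ND array. The difference between HF and ND was -0.44 (standard error 0.07, 95% interval -0.59 to -0.30, limma adjusted p = 0.0021). It was called without any 1 of the 15 arrays, with adjusted p-values from 0.0014 to 0.013. The 4 probe sets gave differences of -0.44, -0.76, -0.67 and -0.38, and all 4 were called when each probe set was tested on its own, with adjusted p-values from 0.00088 to 0.026. With coffee Cycs was 0.14 higher than in HF, which was not called (adjusted p = 0.13), and the coffee arrays overlapped the HF arrays. Of its other probe sets, 1 was called with coffee, at 0.37 (adjusted p = 0.016). With the 3' to 5' value as a covariate the difference between HF and ND was -0.38 with an unadjusted p of 0.0018 (adjusted p = 0.12).

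**Figure D2:**
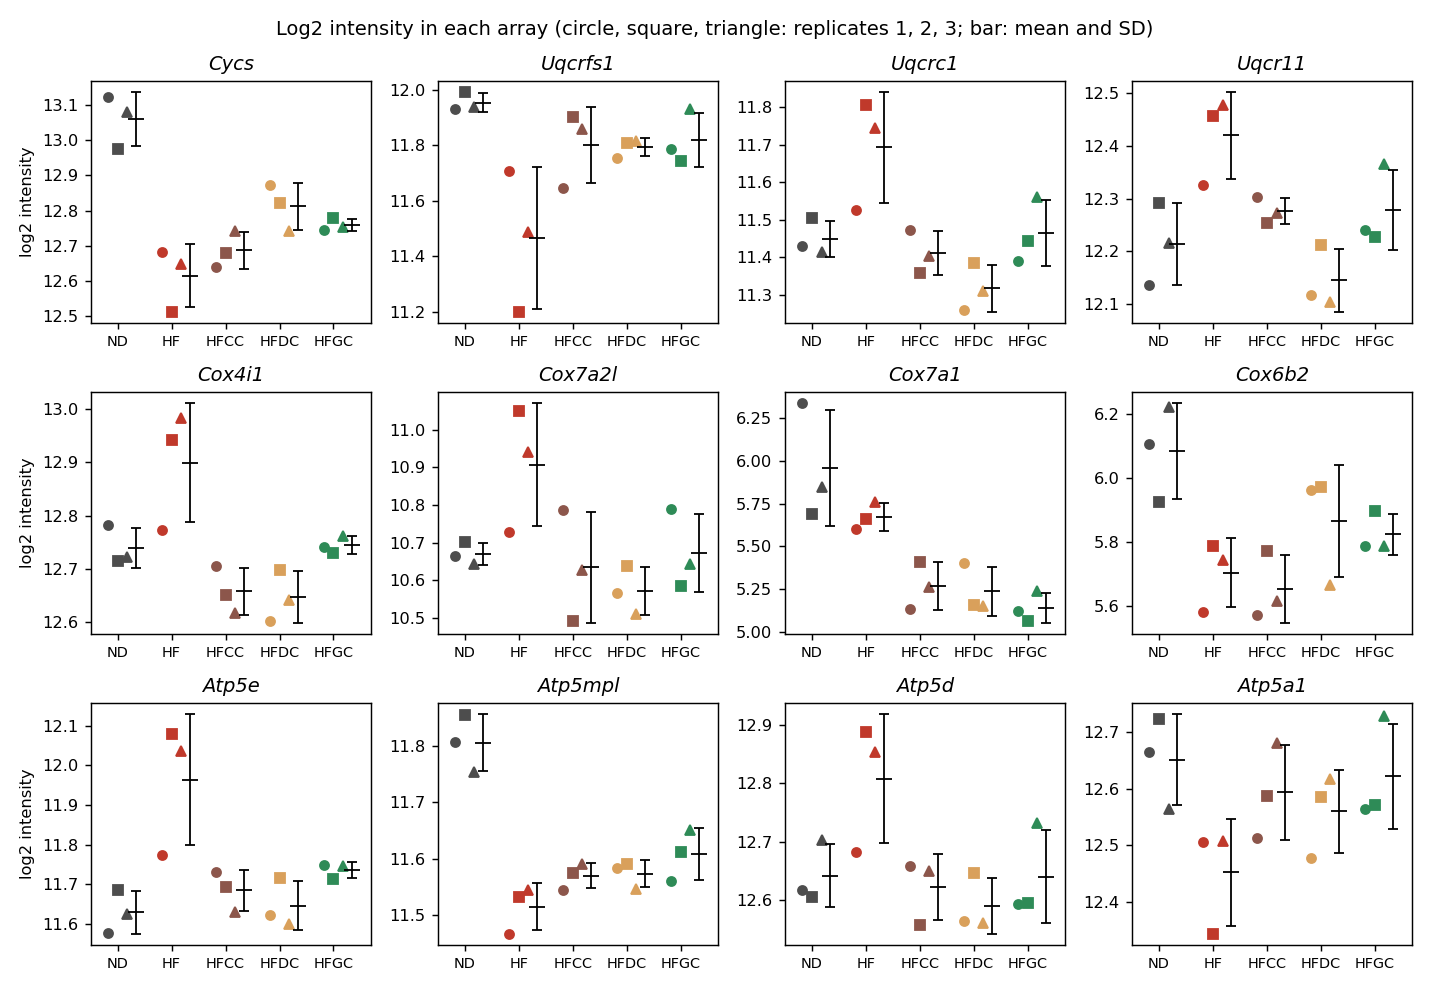
Log2 intensity (y axis, a separate range for each gene) of 12 genes on each array by diet group (x axis), with replicates 1, 2 and 3 as circles, squares and triangles and the group mean and SD (n = 3) to the right. Cycs and Atp5mpl are high on all ND arrays, and Uqcrc1, Cox4i1, Cox7a2l, Atp5e and Atp5d are highest on HF replicates 2 and 3. Cox7a1 and Cox6b2 are dim, with every value below the median gene.

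The complex IV subunits that the liver uses gave small differences between HF and ND, none of them called. Cox4i1, the largest of its nuclear subunits, was at 0.16 (adjusted p = 0.12), and Cox5a, Cox5b, Cox6a1, Cox6b1, Cox7a2 and Cox8a lay between -0.03 and 0.12. For none of these 7 genes did the 95% interval reach beyond 0.30. The only complex IV gene called was Cox6b2, a testis form, which was 0.38 lower in the HF group (standard error 0.10, limma adjusted p = 0.021). The ND arrays gave log2 intensities of 6.11, 5.93 and 6.22 and the HF arrays 5.58, 5.79 and 5.74. The groups did not overlap, but the gene was dimmer than the median gene, and leaving out ND replicate 1, ND replicate 3, HF replicate 1 or HF replicate 3 ended the call (adjusted p up to 0.078). Just outside the threshold lay Cox7a2l at 0.24 (adjusted p = 0.10).

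With the coffee groups together, 3 complex IV genes fell against HF. Cox4i1 had log2 intensities of 12.77, 12.94 and 12.98 on the HF arrays. On the coffee arrays it had 12.71, 12.65 and 12.62 (HFCC), 12.60, 12.70 and 12.64 (HFDC) and 12.74, 12.73 and 12.76 (HFGC). Every HF array lay above every coffee array, and the ND arrays at 12.78, 12.71 and 12.72 lay among or just above the coffee arrays. The difference was -0.22 (standard error 0.05, limma adjusted p = 0.022). Cox7a2l was at -0.28 (standard error 0.07, limma adjusted p = 0.030), and HF replicate 1 at 10.73 lay within the coffee range of 10.49 to 10.79. The largest difference was that of Cox7a1, the form known from heart and skeletal muscle, which was 0.46 lower (standard error 0.11, limma adjusted p = 0.019). The HF arrays gave log2 intensities of 5.60, 5.66 and 5.76 and the 9 coffee arrays values between 5.06 and 5.41, so the groups did not overlap. The ND arrays gave 6.34, 5.69 and 5.85, so the coffee arrays lay farther from the ND arrays than the HF arrays did. Cox7a1 was dim on all arrays, and the 6 markers of striated muscle were all below the median gene. These markers had a summed log2 level of 8.11 to 8.27 over the 15 arrays. Of these 6 markers, 1 was called higher with the coffee groups together, opposite in direction to Cox7a1, and 3 lay below 0. The closest gene outside the threshold was Cox6b1 at -0.17 (adjusted p = 0.054). All 3 calls were lost without HF replicate 2 or without HF replicate 3, with adjusted p-values up to 0.15 for Cox4i1, 0.22 for Cox7a2l and 0.11 for Cox7a1. The differences without these arrays were -0.19 and -0.17 for Cox4i1, -0.21 and -0.26 for Cox7a2l and -0.46 and -0.42 for Cox7a1. With the 3' to 5' value as a covariate they were -0.18, -0.10 and -0.51 (adjusted p = 0.50, 0.76 and 0.42).

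The remaining tissue forms gave little. Cox4i2, a lung form, Cox8b, a muscle form, and Cox7b2, a testis form, were all dimmer than the median gene and were called in no comparison. Their differences between HF and ND were -0.17, 0.02 and -0.11. Cox8c, another testis form, was at -0.18 between HF and ND and 0.14 with coffee, and Cox6a2, a muscle form, at 0.10 and -0.08, none of them called. Cox7c was measured only by dim probe sets, at a mean log2 intensity of 5.67, and its differences of -0.04 and -0.09 have intervals as wide as -0.26 to 0.17.

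In ATP synthase, Atp5e was called in both comparisons. It encodes the epsilon subunit of the rotating central stalk, and its only probe set ends in _s_at, a type that shares probes with other transcripts. Log2 intensities were 11.58, 11.69 and 11.62 on the ND arrays and 11.78, 12.08 and 12.04 on the HF arrays. The HFCC arrays gave 11.73, 11.69 and 11.63, the HFDC arrays 11.62, 11.72 and 11.60, and the HFGC arrays 11.75, 11.71 and 11.75. Every HF array lay above every other array, and HF replicate 1 was close to the highest coffee array. Atp5e was 0.33 higher in HF than in ND (standard error 0.08, limma adjusted p = 0.012) and 0.27 lower with the coffee groups together than in HF (standard error 0.06, limma adjusted p = 0.016). Both calls were lost without HF replicate 2, at 0.28 and -0.22 (adjusted p = 0.062 and 0.14), and without HF replicate 3, at 0.30 and -0.24 (adjusted p = 0.056 and 0.11). With the 3' to 5' value as a covariate the differences were 0.22 (adjusted p = 0.36) and -0.16 (adjusted p = 0.55).

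Atp5mpl, a small membrane protein that associates with ATP synthase, fell in the HF group. Its log2 intensity was 11.81, 11.86 and 11.75 on the ND arrays and 11.47, 11.53 and 11.54 on the HF arrays. The 9 coffee arrays ranged from 11.54 to 11.65, so all 12 arrays on the high-fat diet lay below all ND arrays, and the coffee arrays lay just above the HF arrays. The difference between HF and ND was -0.29 (standard error 0.06, limma adjusted p = 0.0067), and it was called without any 1 of the 15 arrays, with an adjusted p of 0.025 at most. With the HF and ND arrays fitted alone the call was lost (adjusted p = 0.079). The difference with coffee was 0.07 (adjusted p = 0.40). With the 3' to 5' value as a covariate, the difference between HF and ND was -0.27 (adjusted p = 0.17).

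Atp5d, the delta subunit of the same central stalk as Atp5e, was 0.19 lower with the coffee groups together than in HF (standard error 0.06, limma adjusted p = 0.0495), just inside the threshold. The HF arrays gave log2 intensities of 12.68, 12.89 and 12.85 and the coffee arrays values between 12.56 and 12.73, so that HF replicate 1 lay within the coffee range. Leaving out any of 12 arrays ended the call, HF replicates 2 and 3 among them, at -0.15 and -0.17 (adjusted p up to 0.26). Between HF and ND it was at 0.17 (adjusted p = 0.14). The closest gene outside the threshold was Atp5k at -0.17 with coffee (adjusted p = 0.094), and between HF and ND it was Atp5a1 at -0.20 (adjusted p = 0.10). Atp5a1 and Atp5b encode the alpha and beta subunits that form the catalytic head. Atp5b was at -0.03 between HF and ND (95% interval -0.17 to 0.11) and 0.06 with coffee. Atp5g1, Atp5g2 and Atp5g3 encode the same mature ring protein. Their differences between HF and ND were -0.02, 0.08 and 0.03, and with coffee -0.12, -0.09 and -0.09, none of them called. The other genes of the enzyme lay between -0.12 and 0.19 between HF and ND.

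Promoter sequence was looked at for these genes, called or not, because genes of this chain are known to carry sites for the transcription factors NRF1 and GABP near their starts. RefSeq windows of 250 bases before to 50 bases after the start were at hand for 33 of the 44 genes (36 windows). The NRF1 element, searched as GCGCANGCG on both strands, was found in 11 of these windows (30.6%), against 6.25% of 32851 mouse windows. The GABP element, CCGGAAG, was found in 11 (30.6%), against 8.86% of all windows. The shorter NRF1 motif TGCGCA, which can overlap the longer one, was found in 6 (16.7%), against 7.76%. By complex, the NRF1 element stood in 7 of 18 ATP synthase windows, 2 of 5 complex III windows, 1 of 12 complex IV windows and the Cycs window. The median GC content was 56.2% in the 36 windows and 52.7% in all. The 110 bases before the start follow for 4 genes called above, read 5' to 3' on the strand of the gene from the RefSeq windows on GRCm38.p6. Capitals mark a match to the NRF1 or GABP element in either orientation.
Cycs, chr6:50566570-50566679, minus strand: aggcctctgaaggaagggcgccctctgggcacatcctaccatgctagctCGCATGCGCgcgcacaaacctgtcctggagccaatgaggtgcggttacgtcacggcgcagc
Uqcrfs1, chr13:30545317-30545426, minus strand: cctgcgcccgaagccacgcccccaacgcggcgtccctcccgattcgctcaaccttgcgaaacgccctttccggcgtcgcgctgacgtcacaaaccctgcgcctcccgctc
Atp5e, chr2:174464102-174464211, minus strand: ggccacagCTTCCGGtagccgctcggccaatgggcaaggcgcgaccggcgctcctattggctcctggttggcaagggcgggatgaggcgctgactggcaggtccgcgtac
Uqcr11, chr10:80406822-80406931, minus strand: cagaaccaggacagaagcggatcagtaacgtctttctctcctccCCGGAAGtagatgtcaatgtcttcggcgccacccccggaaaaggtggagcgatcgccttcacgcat
The NRF1 match of Cycs begins 61 bases before the start, and the GABP matches of Atp5e and Uqcr11 begin 102 and 66 bases before it. Uqcr11 has a further NRF1 match that begins 5 bases before the start and runs past the end of the stretch shown. Uqcrfs1 has no match to these letters in its window. Uqcrc1 has its NRF1 matches after the start. No match was found for the called genes Cox4i1, Cox7a1, Cox7a2l, Cox6b2, Atp5d and Atp5mpl, some of which may have had no window. Genes that were not called, such as Atp5h and Cox6a1, also held matches. A match describes the sequence only.

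The 3 coffees were also compared with HF one at a time, on the same HF arrays. In the HFCC group 0 of the 44 genes were called by limma, against 0.379% of all genes called higher and 1.26% called lower. At an unadjusted p under 0.05 there were 9 of the 44 genes and 3345 of all 18193. In the HFDC group 0 were higher and 5 lower, against 1.31% and 3.70% of all genes. They were Uqcrc1 at -0.38 (adjusted p = 0.026), Atp5e at -0.32 (adjusted p = 0.035), Uqcr11 at -0.28 (adjusted p = 0.037), Cox4i1 at -0.25 (adjusted p = 0.042) and Cox7a2l at -0.34 (adjusted p = 0.049). In the HFGC group 1 gene was called lower, Cox7a1 at -0.53 (adjusted p = 0.045), against 0.781% called higher and 2.31% called lower of all genes. Each of these 6 calls was lost when HF replicate 2, HF replicate 3 or any array of the coffee group itself was left out, with adjusted p-values up to 0.20 for the HFDC calls and 0.16 for the HFGC call. For HFCC, HFDC and HFGC in turn, Uqcrfs1 was at 0.34, 0.33 and 0.35 against HF, Atp5e at -0.28, -0.32 and -0.23, and Uqcrc1 at -0.28, -0.38 and -0.23. The values were farthest apart for Cox6b2 (-0.05, 0.16 and 0.12) and Atp5g1 (-0.09, -0.24 and -0.04).

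Tested against each other, the coffee groups gave 0 calls among the 44 genes in limma in each of the 3 comparisons (2 genes at an unadjusted p under 0.05 between HFDC and HFCC, 0 between HFGC and HFCC and 1 between HFGC and HFDC). The median difference was -0.03, 0.02 and 0.05, and 33 genes were below 0 between HFDC and HFCC and 35 above 0 between HFGC and HFDC. The share of all genes above 0 was 56.2% between HFDC and HFCC and 48.9% between HFGC and HFDC. Over all genes 0.0934% were called between HFDC and HFCC, 0% between HFGC and HFCC and 0.0385% between HFGC and HFDC. At an unadjusted p under 0.05 there were 1450, 464 and 1226 of all 18193 genes. The 95% interval lay within 1.5-fold for all 44 genes in each of these comparisons, and within 1.25-fold for 43, 40 and 39 of them. The largest differences were 0.21 for Cox6b2 between HFDC and HFCC (adjusted p = 0.63) and 0.20 for Atp5g1 between HFGC and HFDC (adjusted p = 0.52), with 95% intervals of 0.0019 to 0.42 and 0.06 to 0.34. No difference between the coffees passed the threshold in these genes with 3 mice each, and differences within those intervals remain possible.

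The probe sets of a gene did not always give the same value, which limits what a single gene shows. Among the 27 genes with more than 1 probe set, 12 had probe sets on both sides of 0 between HF and ND. Of the 87 probe sets tested on their own, 14 were called there (16.1%, against 12.0% of all 34945), 4 higher and 10 lower. Atp5a1 was at -0.20 and 0.09 on its 2 bright probe sets and at 0.40 on a dimmer one, which was called (adjusted p = 0.0498). Uqcrb, a small complex III subunit, was at -0.05 on its brightest probe set and -0.27 on the other, which was called (adjusted p = 0.048). Atp5pb, the b subunit of the peripheral stalk, was at -0.02 and -0.37 (the latter with adjusted p = 0.021). Uqcr10 had 1 of its 3 probe sets called, at -0.34 (adjusted p = 0.028). Atp5k was at 0.19, 0.24 and 0.26, and the latter pair, which end in _x_at and may hybridise with transcripts of more than 1 gene, were called. Cox6a2 was at 0.10 on the probe set used and -0.27 on a dim one ending in _x_at. With the coffee groups together, 16 of the 87 probe sets were called (18.4%, against 9.19% of all), 5 higher and 11 lower, over 15 genes, and 11 of the 27 genes had probe sets on both sides of 0. The second probe set of Atp5d was called there at -0.29 (adjusted p = 0.011). Atp5a1 was there at 0.14 and -0.13 on its bright probe sets and at -0.39 on the dimmer one, which was called (adjusted p = 0.029). Atp5c1 was at 0.08 on its bright probe set and -0.32 on a dim one, which was called (adjusted p = 0.047). The latter pair of Atp5k was called at -0.20 and -0.32 (adjusted p = 0.041 and 0.0096).

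**Figure D3:**
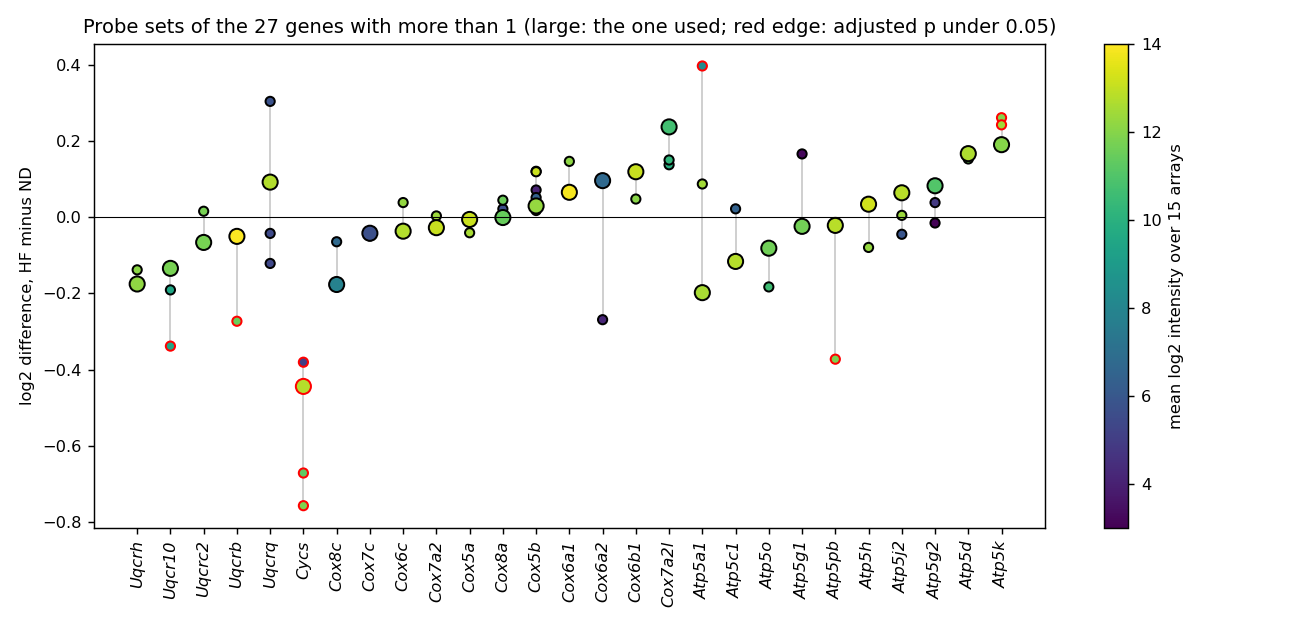
Log2 difference between HF and ND (y axis) of every probe set of the 27 genes that have more than 1 (x axis), coloured by mean log2 intensity over the 15 arrays. Large points are the probe sets used for the gene, and a red edge marks an adjusted p under 0.05. All 4 Cycs points lie at or below -0.38 with a red edge, while those of Atp5a1 run from -0.20 to 0.40.

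Other parts of the respiratory chain were set beside these genes from the same fit. As background for their counts, the 18193 measured genes had called shares of 8.92% (higher) and 4.63% (lower) between HF and ND. With the coffee groups together these shares were 3.39% and 6.88%. Without HF replicate 2, the share in either direction was 5.44% between HF and ND and 0.022% with coffee. Of 36 complex I subunits, 4 were higher and 4 lower between HF and ND, and 0 higher and 8 lower with the coffee groups together, with medians of 0.02 and -0.08. Leaving out HF replicate 2 gave 2 higher and 1 lower between HF and ND and 0 of either kind with coffee. In complex II, which passes electrons from succinate to ubiquinone, 3 of 4 genes were called between HF and ND. Sdha was at 0.35, Sdhc at 0.37 and Sdhd at -0.51 (adjusted p = 0.0072, 0.0052 and 0.0022), calls kept without any 1 array and lost with the 3' to 5' covariate. With coffee Sdhc was at -0.24 and Sdhd at 0.23, both lost without HF replicate 2 or 3, and Sdhd also without any 1 of 5 coffee arrays (adjusted p up to 0.12 and 0.25). The assembly factors of complex III gave 3 higher and 0 lower of 6 between HF and ND and 0 higher and 2 lower with coffee. Uqcc2, which is needed to build cytochrome b into the complex, was at 0.31 in HF (adjusted p = 0.0098), a call kept without any 1 array but lost with the 3' to 5' covariate (0.24, adjusted p = 0.25), and at -0.26 with coffee (adjusted p = 0.012), a call lost without HF replicate 2 or 3. The complex IV assembly factors gave 3 higher and 1 lower of 23 between HF and ND and 0 and 4 with coffee, and without HF replicate 2 the counts were 0 and 0 in both comparisons. The 76 genes of the mitochondrial ribosome gave 10 higher and 7 lower between HF and ND and 4 higher and 13 lower with coffee. Without HF replicate 2 they gave 9 and 0 between HF and ND and 0 and 0 with coffee. Of the called genes of these lists, only Mrps27 stayed called between HF and ND with the covariate, at 0.70 (adjusted p = 0.020).

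Among regulators of ATP synthase, Atpif1, the inhibitor protein that stops the enzyme from running backwards, was 0.76 higher in HF than in ND (standard error 0.17, adjusted p = 0.011), and the call was lost without HF replicate 2 (adjusted p = 0.057). Tmem70, which helps assemble the membrane ring, was 0.47 lower in HF (adjusted p = 0.046), a call lost without any 1 of 11 arrays, HF replicates 2 and 3 among them (adjusted p up to 0.20). Vdac2, a channel of the outer membrane, was 0.33 lower (adjusted p = 0.019, and up to 0.091 when ND replicate 1, ND replicate 2, HF replicate 2 or HF replicate 3 was left out). Of 13 transcription factors and coactivators of respiratory genes, 0 were called by limma between HF and ND. At an unadjusted p under 0.05 there were 2 of them, and 5248 of all 18193 genes. With coffee Ppargc1b, a coactivator, was 0.51 lower than in HF (standard error 0.10, adjusted p = 0.0093) and Gabpa, the DNA-binding subunit of GABP, was 0.35 higher (adjusted p = 0.040). Both calls were lost without HF replicate 2 or 3 (adjusted p up to 0.095 and 0.28), and that of Gabpa also without any 1 of 7 coffee arrays. Ppargc1b was at -0.66, -0.17 and -0.70 in HFCC, HFDC and HFGC, called in the first and last, and HFDC was 0.49 above HFCC, which was not called (adjusted p = 0.16). Nrf1 itself was at -0.04 in HF and 0.03 with coffee. With the 3' to 5' value as a covariate, the HF differences of Atpif1, Tmem70 and Vdac2 were 0.58, -0.07 and -0.08. Their limma adjusted p-values were 0.29, 0.89 and 0.71. The coffee differences of Ppargc1b and Gabpa were then -0.55 and 0.002 (limma adjusted p = 0.41 and 0.996).

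**Figure D4:**
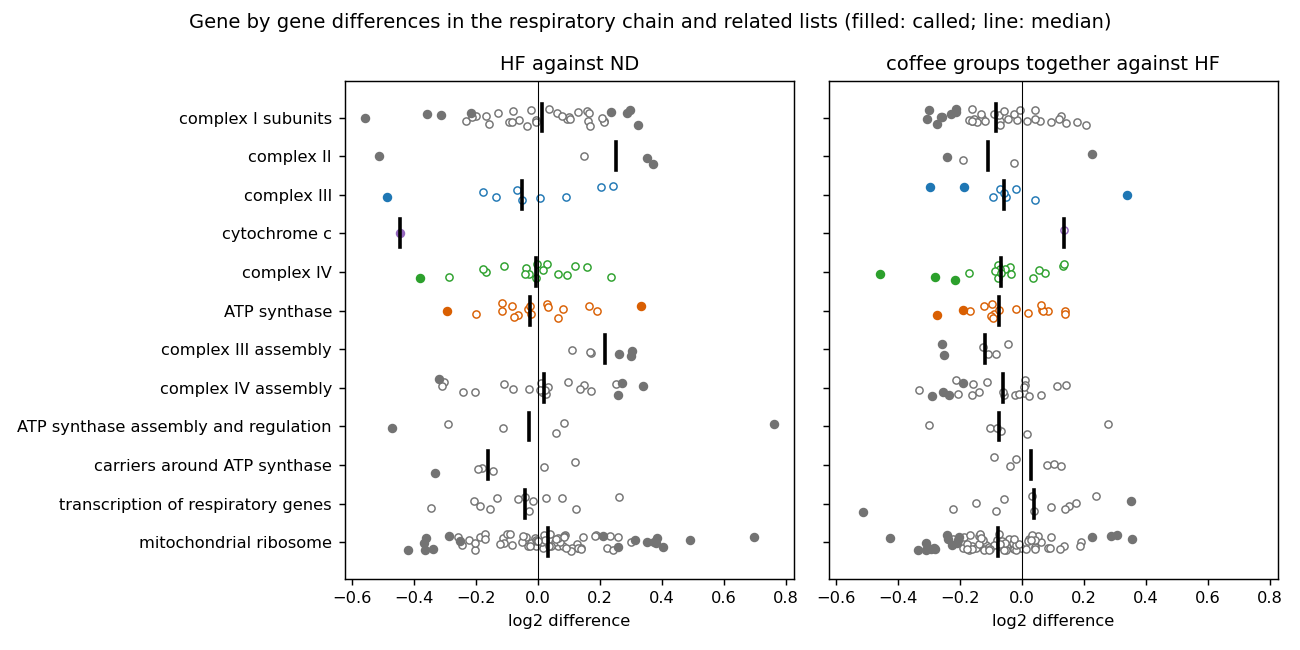
Log2 difference of each gene (points) between HF and ND (left) and the coffee groups together and HF (right) in the 4 groups of genes described here (coloured) and in other lists of the respiratory chain (grey), with filled points called and a black line at the median. The medians of complexes III and IV and ATP synthase lie between -0.05 and -0.01 on the left and between -0.07 and -0.06 on the right.

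The weight of single arrays was read by leaving out each of the 15 in turn. Between HF and ND, the count called ran from 3 to 10 of the 44 genes, with 10 called without HF replicate 1 (7 higher and 3 lower), 4 without HF replicate 2 and 3 without HF replicate 3. Over all genes 17.2%, 5.44% and 6.38% were called without these arrays, and 13.5% with all 15. Cycs, Uqcrfs1 and Atp5mpl were called each time. With the coffee groups together the count ran from 0 to 10, with 0 without HF replicate 2 or 3 and 10 without HF replicate 1, where 15% of all genes were called. HF replicate 1 had the lowest 3' to 5' value of the HF arrays. With that value as a covariate, 0 of the 44 genes were called by limma in each comparison with HF, with 4 at an unadjusted p under 0.05 between HF and ND and 3 with the coffee groups together. Over all genes 14 were called in that fit between HF and ND and 0 with the coffee groups together. How many of all genes had an unadjusted p under 0.05 in it is not given. All 3 HF arrays had higher 3' to 5' values than every other array, and the part of RNA quality in these differences was not tested beyond that fit.

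**Figure D5:**
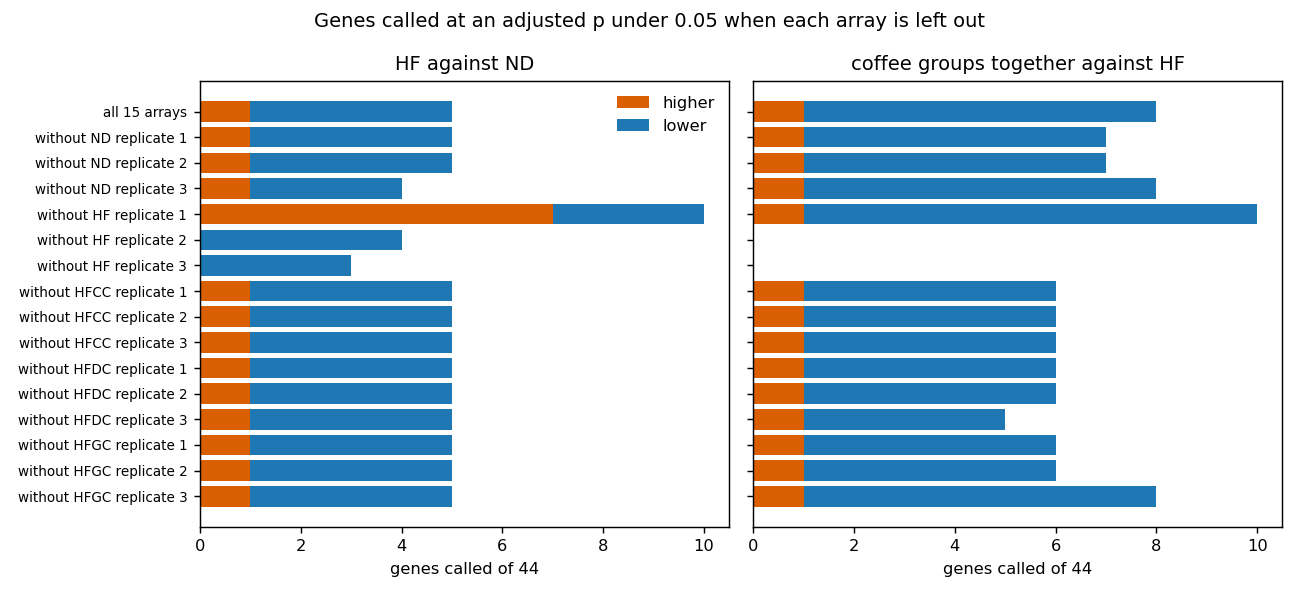
Number of the 44 genes called higher (orange) and lower (blue) at an adjusted p under 0.05 (x axis) with all 15 arrays and without each array in turn (y axis), for HF against ND (left) and the coffee groups together against HF (right). The right panel is empty without HF replicate 2 and without HF replicate 3, and the left panel keeps 4 and 3 genes there, all lower.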

How the data were processed

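Liver RNA of 15 mice was hybridised to 1-colour arrays, 1 array per mouse. The authors computed the deposited values, intensities on a linear scale, with RMA, which subtracts background, makes the distributions of all arrays alike and combines the probes of a set into 1 number. The software version is not given in the sources used here. Of 45101 probe sets, 34945 carried exactly 1 gene symbol in the platform annotation, and 932 carried several and were left out. The brightest probe set over the 15 arrays stood for each of 18193 genes, one ending in _x_at only where there was no other. Among the 44 genes, 8 were represented by probe sets ending in _s_at, which share probes with other transcripts. Atp5e and Atp5d were among them.

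The log2 of each deposited intensity was fitted by limma 3.58.1 in R 4.3.3 with 5 group means over all 15 arrays (10 residual degrees of freedom), two-sided, with Benjamini-Hochberg adjustment over all genes. Precision is limited by the 3 arrays per group. Each p-value sets a difference of means against a variance between mice, pooled over the 5 groups and moderated over all genes. That variance is not the spread of the compared groups alone. On simulated data with 200 changed genes, a 1.5-fold change was recovered for 170 between HF and ND and 184 with the coffee groups together, and a 1.25-fold change for 19 and 82. The simulated noise was independent, with the same spread of a gene in every group. In the real data 2465 and 1868 genes were called and some genes spread more widely in HF. The recovered counts therefore need not hold for the real data. Alternatives covered the probe set rule, dim genes, cyclic loess, an offset of 32, the samples fitted, the replicate number, moderation, thresholds, the 3' to 5' value and each array.

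Named were all genes called, the tissue forms, the core subunits, those nearest the threshold in each complex and those whose probe sets disagreed. The genes, lists and motifs were chosen with earlier results of these data known. Promoter windows came from RefSeq (GRCm38.p6), and Python 3.11.15 searched them.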

Additional observations from a re-analysis of the deposited data

How the results depend on the processing

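No called difference changed its sign under any alternative run. Between HF and ND, where 5 of the 44 genes were called, the count was 8 with probe sets averaged per gene, with an offset of 32, with a trended and robust fit and at an adjusted p under 0.10, 10 with all probe sets tested, 1 (Cycs) with the HF and ND arrays alone, and 0 at a minimum of 1.5-fold or with the 3' to 5' covariate. Without 1 array it ran from 3 to 10. With the coffee groups together (8 called), it was 15 with all probe sets, 5 with cyclic loess, and 0 at 1.5-fold or with the covariate, and ran from 0 to 10 without 1 array. For HFCC (0 called) it was 3 among genes at or above the median level or with the offset and 4 at 0.10, and ran from 0 to 6. For HFDC (5 called) it was 9 with all probe sets, 8 among brighter genes, 1 with cyclic loess, 10 with the offset, 12 at 0.10, and 0 with the compared groups alone, at 1.5-fold or with the covariate, and ran from 0 to 10. For HFGC (1 called) it was 3 with all probe sets, 2 at 0.10, and 0 with probe sets averaged, cyclic loess, the offset, the compared groups alone, 1.5-fold or the covariate, and ran from 0 to 6. Calls over all genes moved as well. Without 1 array, 5.44% to 17.2% of all genes were called between HF and ND and 0.022% to 15% with the coffee groups together. With the covariate it was 0.077% and 0%. With all probe sets, a gene counted where any of its probe sets was called, and 12% and 9.19% of all probe sets were called. Shares of all genes under the other alternatives, and for each coffee alone under any alternative, are not given. Those counts therefore cannot be read as particular to these 44 genes. The cause of the changes was not tested, except that fewer arrays were fitted with the compared groups alone.

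The median differences of the complexes moved most with the covariate, to 0.053 for complex III and 0.044 for ATP synthase between HF and ND and to -0.082 and -0.076 in HFGC. The complex IV median between HF and ND was 0.029 among brighter genes, and the ATP synthase median in HFDC was -0.11 with probe sets averaged. Without 1 array, the complex IV median ran from -0.089 to -0.031 with the coffee groups together and from -0.11 to -0.038 in HFDC, and the ATP synthase median from -0.072 to -0.027 in HFCC and from -0.11 to -0.054 in HFDC.

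The replicate numbers were not taken to pair the mice. Arrays with the same number correlated at -0.28 to 0.23 (median 0.06) in their deviations from the group means. Arrays with other numbers correlated at -0.22 to 0.31 (median -0.03), and 7 of 15 arrays correlated best with their own number. These values do not settle whether arrays of the same number share a block. With the replicate number as a block, the counts were 5 (HF against ND), 6 (coffee groups together), 0 (HFCC), 3 (HFDC) and 0 (HFGC). The shares of all genes called with that block are not given.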
